A study of Mus musculus with 10 samples.

Results

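The transcriptome of the normal newborn mouse pancreas was read from 5 wild-type (WT) libraries, out of 10 pancreas libraries in the series. A library was included if its genotype was given as wild type and its age as postnatal day 5 (P5). The mice were C57BL/6 littermate controls, untreated. The labels give their genotype as wild type alone, and the sources used here do not say whether a control carried 1 of the alleles that make up the KSR23 mice of the same litters, in which Cre recombinase driven by the K14 promoter switches on an IL-23 cassette that sits in ROSA26 behind a floxed STOP. The KSR23 libraries enter no value given here. Each library was made from RNA of the whole organ and carries its own replicate number, WT 1 to WT 5, so the spread given here is that between these 5 samples, which may in part be technical, and a gene with fewer expressing cells cannot be told apart from a gene with less RNA per cell.

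The pancreas holds an exocrine and an endocrine tissue. Acinar cells make and store digestive enzymes, most of them as inactive precursors (zymogens), and release them into a duct system whose cells add fluid and bicarbonate. The islets of Langerhans secrete insulin, glucagon and other hormones into the blood. A suckling mouse lives on milk, which is rich in fat and poor in starch, and its pancreas is known for a set of lipases that differs from that of the weaned animal.

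Between 26830235 and 33189132 reads per library were assigned to genes. Levels are given as CPM, read counts brought to a common library total, with the totals scaled by the trimmed mean of M values (TMM), and shares as percentages of the unscaled gene counts. A level per kb is the CPM divided by the exon length of the gene in kb, and an order by CPM is an order of read counts, which also follows gene length. Errors are standard deviations over the 5 mice (n = 5), and there being 1 group, no comparison between groups was made. A count of 0 in a library allows a level of up to 3 counts, between 0.0904 and 0.112 CPM, which covers counting error only, because reads copied by PCR were not separated by molecular identifiers.

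The labelled tissue was checked against markers of its main cell types. Cela2a, an elastase of acinar cells, stood at 66014, 54353, 58410, 59259 and 60807 CPM in WT 1 to WT 5. Cpa1, the acinar carboxypeptidase A, stood at 19336, 17654, 19109, 19608 and 18450 CPM. Both were among the 20 highest genes by mean CPM, and their values lay within a narrow band in all 5 mice. Ctrl, a chymotrypsin-like protease, had 8981, 7839, 8575, 8881 and 7804 CPM. Ins2, 1 of the 2 mouse insulin genes, had 4517, 3210, 3679, 4885 and 4076 CPM. Sox9, a transcription factor of duct cells, had 65.2, 66.1, 47.7, 63.1 and 64.1 CPM, with WT 3 below the other 4 mice. All 5 markers were detected in every library.

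The RNA of the P5 pancreas was concentrated on very few genes. Of 24062 genes in the count tables, 5545 (23.0%) had no count in any of the 5 mice and 12188 reached 1 CPM in every mouse. The gene with the most counts, Pnliprp1, took 10.2% ± 0.200 of all gene counts, and the 10 highest genes together took 49.2% ± 0.930. In the individual mice the 10 highest genes took 49.4%, 48.1%, 49.6%, 50.4% and 48.6%. They were the same 10 genes in all 5 mice. A share of 50% of the counts lay on 11 genes by the mean share, and on 10 to 12 genes in single mice, whereas 75% of the counts required 303 to 430 genes and 90% required 2919 to 3184. The 16 genes over 10000 CPM held 57.7% ± 0.976 of the counts, and the 6618 genes between 10 and 100 CPM held 19.7% ± 0.596.

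**Figure D1:**
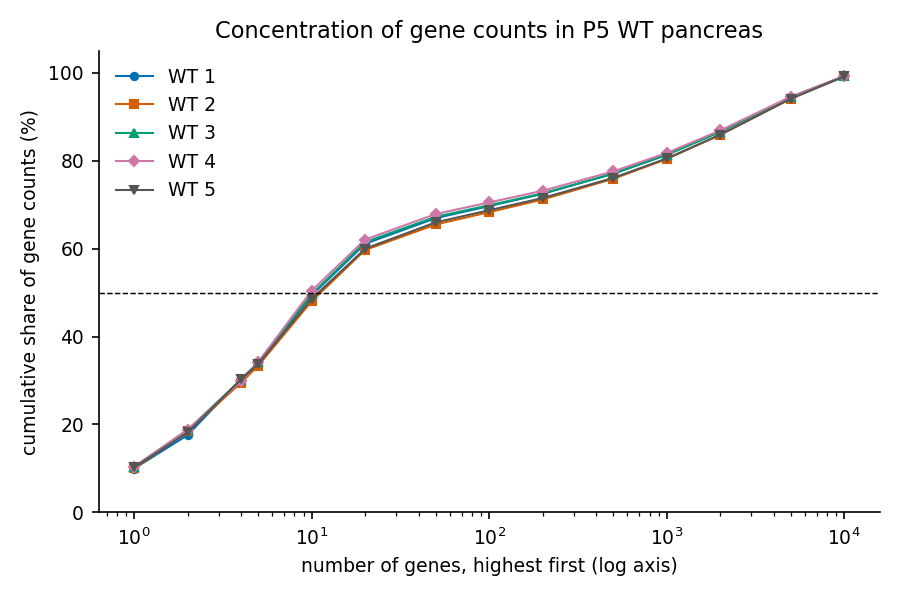
Cumulative share of gene counts (%) against the number of genes counted from the highest downwards (log axis), with 1 line per WT mouse and a dashed line at 50%. The 5 lines nearly coincide, and the 10 highest genes hold between 48.1% and 50.4% of the counts.

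All 10 of the highest genes by CPM encode secreted proteins of acinar cells. In order of mean CPM they were Pnliprp1, Cel, Cela2a, Ctrb1, Cpb1, Reg1, Clps, Prss2, Rnase1 and Try5. Pnliprp1, a relative of pancreatic lipase encoded on the plus strand of chromosome 19 (chr19:58728887-58744169, mm10), stood at 101792, 96616, 105113, 107820 and 98872 CPM. It was the highest gene by CPM in each of the 5 mice. Cel, the bile salt-dependent carboxyl ester lipase that splits milk fat, followed with 77600, 81543, 84958, 87563 and 76825 CPM and was the second gene in each mouse. Ctrb1, a chymotrypsinogen, had 63445, 52887, 56777, 55211 and 55853 CPM. Reg1, a secreted C-type lectin of acinar cells, had 37958, 33700, 38726, 41231 and 32885 CPM. It was the only gene among the 10 outside the lists of digestive enzyme genes used here, which count Pnliprp1 as a relative of pancreatic lipase. Per kb of exon the order changed, since Cel and Cpb1 have longer transcripts: Ctrb1 came first with 64732 ± 4516 CPM per kb, then Pnliprp1 (63028 ± 2803), Clps (59162 ± 9738) and Cela2a (55858 ± 3952). The ranges of neighbours in this order overlapped over the 5 mice, but within single mice Ctrb1 and Pnliprp1 were each above Cela2a in all 5. Ctrb1 was above Pnliprp1 in WT 1, WT 2 and WT 5 and below it in WT 3 and WT 4. Prss2 (43575 ± 4263), Reg1 (40818 ± 3894) and Cel (39601 ± 2242) followed with ranges that overlapped from neighbour to neighbour, and Prss2 was above both others in all 5 mice. Try5 (25791 ± 1160) and Rnase1 (25393 ± 1045) overlapped each other and lay below all 7.

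The digestive enzyme genes together took 57.0% ± 0.778 of all gene counts, between 56.1% and 57.9% in single mice. Of 32 listed genes present in the tables, 27 reached 1 CPM in every mouse and 3 had no count. Lipases, counted here with the lipase relative Pnliprp1, and their cofactor colipase were the largest class with 22.3% ± 0.747. Within it the classical pancreatic lipase was low: Pnlip, which encodes the triglyceride lipase of the adult gland, had 53.8, 57.9, 51.1, 53.1 and 65.7 CPM. Per kb, Pnliprp1 exceeded Pnlip by a factor of 1681 ± 219, with a range from 1383 to 1890 over the mice, and Cel exceeded it by a factor of 1057 ± 146. Pnliprp2, a lipase known to act on milk fat before weaning, had 3033 ± 127 CPM, and Pnliprp1 exceeded it by a factor of 32.7 ± 0.982 per kb. Clps, the colipase that anchors lipase to fat droplets, was the most variable of the 10 highest genes, with 38196, 30127, 33844, 45456 and 33115 CPM (CV, 16.5%).

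Chymotrypsins and elastases took 15.2% ± 0.714 of the counts, and 5 of the 7 listed genes exceeded 1000 CPM. Ctrc, the chymotrypsin that helps to degrade trypsin, stood at 14.5, 11.5, 14.4, 10.6 and 13.4 CPM. Per kb, Ctrc had 13.4 ± 1.82 CPM, while Cela1, the next gene above it, had 7265 ± 689, Ctrl 9575 ± 641 and Cela3b 14951 ± 961. Gm13011 was the lowest of the list with 2.68 ± 0.403 CPM per kb. Trypsinogens took 9.39% ± 0.291 of the counts. Their order per kb was Prss2 (43575 ± 4263), Try5 (25791 ± 1160), Try4 (12860 ± 767), Prss1 (12727 ± 536), Gm5771 (10947 ± 422), Try10 (5551 ± 476), Prss3 (4456 ± 294) and Gm2663 (89.8 ± 12.1), and only the ranges of Try4 and Prss1 overlapped. This trypsinogen share and order leave out 2210010C04Rik (9906 ± 409 CPM) and Gm10334 (1454 ± 143 CPM), which are also trypsin genes. The split among trypsinogens is uncertain, because the files count only uniquely aligned reads. Of the windows of 75 bases, the read length, in the longest transcript of each gene, 99.1% for Prss2 occur in no other gene, but only 62.2% for Try5, 62.9% for Prss1, 56.1% for Try4 and 46.1% for Prss3 do so.

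Carboxypeptidases took 7.45% ± 0.256 of the counts, led by Cpb1 with 37844 ± 3104 CPM. Nucleases took 2.52% ± 0.0999, nearly all of it on Rnase1, the pancreatic ribonuclease, with 25190 ± 1037 CPM. Amylases took 0.102% ± 0.00915. Amy2b, which GENCODE M21 lists as an unprocessed pseudogene, had 991, 1046, 1114, 942 and 884 CPM, and Amy1, known as the salivary amylase, had 26.1 ± 2.14 CPM. Amy2a5 stood at 1.15 ± 0.501 CPM, and Amy2a2, Amy2a3 and Amy2a4 had no count in any mouse. None of the windows of Amy2a2 is unique to it and 48.8% of those of Amy2a5 are, so reads shared by these copies are counted for no gene, and the amylase share is a lower limit. Klk1, the tissue kallikrein of the pancreas, had 1341 ± 64.2 CPM and was the only 1 of 14 listed kallikreins over 100 CPM.

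**Figure D2:**
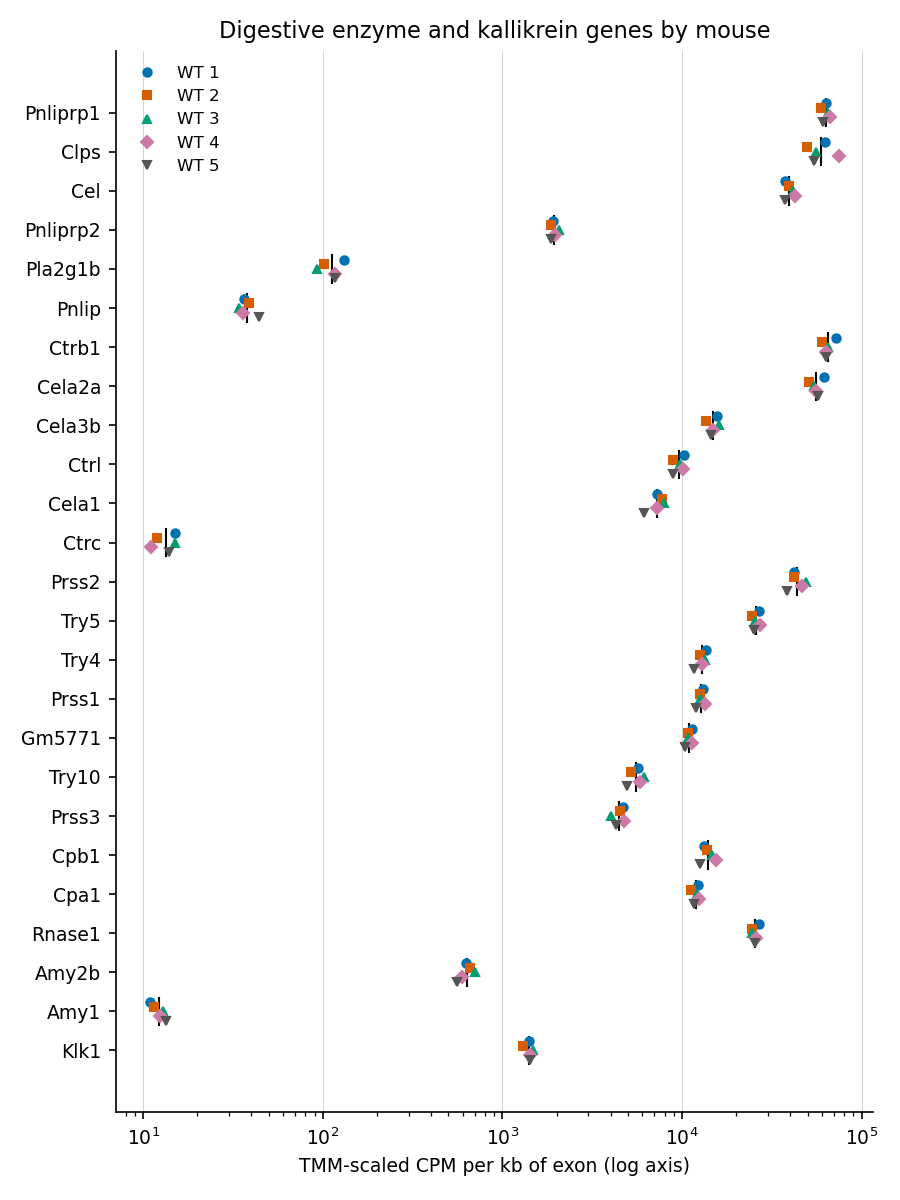
Level of digestive enzyme genes and Klk1 in TMM-scaled CPM per kb of exon (log axis), with 1 symbol per WT mouse and a vertical bar at the mean of the 5 mice. Pnlip, Ctrc and Amy1 lie below the other members of their classes shown, in all 5 mice.

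The highest enzyme genes and the Reg genes are shown with the sequence around their start, from 250 bases before to 50 bases after it, as RefSeq gives it for GRCm38.p6. The first 3 are the highest gene, the highest elastase and the highest trypsinogen by CPM. The other 4 are Reg genes, of which Reg1 was alike in all mice and Reg2, Reg3b and Reg3g were not. Capitals mark CACCTG on either strand (printed as CAGGTG where it lies on the other strand), an E-box of the kind bound by the acinar factor PTF1, and TATAAA on the strand of the gene.
Pnliprp1: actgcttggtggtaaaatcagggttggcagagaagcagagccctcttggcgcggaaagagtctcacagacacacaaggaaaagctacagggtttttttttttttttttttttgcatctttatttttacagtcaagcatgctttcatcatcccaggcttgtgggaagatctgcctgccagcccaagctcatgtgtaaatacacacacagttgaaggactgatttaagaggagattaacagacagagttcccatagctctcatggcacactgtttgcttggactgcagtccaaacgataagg
Cela2a: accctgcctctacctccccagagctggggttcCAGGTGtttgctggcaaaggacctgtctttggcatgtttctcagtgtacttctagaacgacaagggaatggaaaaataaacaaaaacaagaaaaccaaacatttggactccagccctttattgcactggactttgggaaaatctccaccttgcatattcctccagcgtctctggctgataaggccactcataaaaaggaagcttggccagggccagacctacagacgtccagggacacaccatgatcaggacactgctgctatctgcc
Prss2: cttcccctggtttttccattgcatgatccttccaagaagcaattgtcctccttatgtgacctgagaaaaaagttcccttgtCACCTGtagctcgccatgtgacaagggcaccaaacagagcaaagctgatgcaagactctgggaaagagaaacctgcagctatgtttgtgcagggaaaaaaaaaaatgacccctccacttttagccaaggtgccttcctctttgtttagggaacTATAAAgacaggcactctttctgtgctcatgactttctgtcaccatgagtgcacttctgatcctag
Reg1: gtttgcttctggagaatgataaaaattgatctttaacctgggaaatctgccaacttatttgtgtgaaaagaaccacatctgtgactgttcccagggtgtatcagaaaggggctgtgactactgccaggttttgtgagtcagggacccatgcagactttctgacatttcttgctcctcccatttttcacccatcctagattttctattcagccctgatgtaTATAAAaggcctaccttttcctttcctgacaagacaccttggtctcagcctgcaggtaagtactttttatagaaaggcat
Reg2: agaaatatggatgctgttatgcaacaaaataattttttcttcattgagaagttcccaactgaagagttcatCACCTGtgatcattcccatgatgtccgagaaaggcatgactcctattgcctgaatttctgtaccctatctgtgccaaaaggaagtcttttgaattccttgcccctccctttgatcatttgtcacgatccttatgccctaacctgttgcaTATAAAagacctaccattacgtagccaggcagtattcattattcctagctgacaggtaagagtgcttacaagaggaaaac
Reg3b: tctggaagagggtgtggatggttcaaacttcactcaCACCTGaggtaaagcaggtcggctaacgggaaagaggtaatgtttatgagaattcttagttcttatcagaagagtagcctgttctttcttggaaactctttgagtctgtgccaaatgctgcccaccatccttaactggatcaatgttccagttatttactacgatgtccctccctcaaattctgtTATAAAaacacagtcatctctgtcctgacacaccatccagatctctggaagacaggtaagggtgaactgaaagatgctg
Reg3g: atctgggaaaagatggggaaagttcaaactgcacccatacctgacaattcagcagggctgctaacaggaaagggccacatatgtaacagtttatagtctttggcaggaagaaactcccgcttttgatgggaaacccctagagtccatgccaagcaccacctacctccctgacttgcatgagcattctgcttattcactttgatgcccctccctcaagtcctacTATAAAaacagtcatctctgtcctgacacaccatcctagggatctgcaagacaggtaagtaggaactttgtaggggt
The window of Pnliprp1 (chr19:58728637-58728936, plus strand) holds neither run of letters. Cela2a (chr4:141825956-141826255, minus strand) holds the E-box 218 bases before the start on the other strand, and Prss2 (chr6:41521526-41521825, plus strand) holds it at 169 bases and TATAAA at 16 bases before the start. CACCTG was found in 14 of the 26 digestive enzyme genes with an entry in the promoter table, or 53.8%, and in 12 of the 16 such genes over 1000 CPM, against 20.2% of all 32851 windows. TATAAA was found in 12 of the 26 (46.2%), against 8.32% of all windows. The trypsinogen genes among these are near copies of each other, and the matches describe these letters only. A gene counted if any of its windows held the letters, whereas the share of all windows counts each window singly.

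The Reg windows lie together on chromosome 6: Reg1 at chr6:78425733-78426032, Reg2 at chr6:78404905-78405204 and Reg3b at chr6:78370635-78370934 on the plus strand, and Reg3g at chr6:78468825-78469124 on the minus strand. All 4 hold TATAAA, 30, 30, 29 and 27 bases before the start, in that order. CACCTG was present in Reg2 and Reg3b and not in Reg1 and Reg3g. Of all 7 Reg genes, 5 held it (71.4%), a higher share than that of the enzyme genes. Reg4, which had 0 to 0.0664 CPM per kb, was among the 5. The letters TTCNNNGAA were searched on both strands as the short form of a STAT site. They were found in the window of Reg3b and of Reg3d, and in 3 of the 26 enzyme genes (11.5%). Of these enzyme genes Prss2 is printed here and holds them 221 bases before the start. Of all windows, 8.30% held these letters, again a share of windows and not of genes.

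The high genes clustered in the genome. Chromosome 6 carried 19.9% ± 0.439 of all gene counts but only 5.10% of the genes that reached 1 CPM in every mouse, and without the 20 highest genes its share was 2.49%. The trypsinogen cluster in the 1-Mb window chr6:41000001-42000000 held 9 genes over 1000 CPM and 10.5% ± 0.265 of the counts. These were Prss2, Try5, Try4, Prss1, 2210010C04Rik, Gm5771, Try10, Prss3 and Gm10334. The window of Pnliprp1 and Pnliprp2 on chromosome 19 (58000001 to 59000000) held a further 10.5% ± 0.205, and the Reg cluster (chr6:78000001-79000000) 3.76% ± 0.223. The 5 highest windows of the genome together held 40.9% of the counts.

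Genes of the machinery that makes and stores these enzymes took a smaller share than the enzymes and the Reg family. The zymogen granule and secretion genes took 1.49% ± 0.0354 of the counts, with 15 of 16 genes at 1 CPM or more in every mouse. Sycn, which encodes the granule protein syncollin, had 3498 ± 283 CPM, Zg16, a granule lectin, had 2566 ± 210, and Gp2, the major protein of the granule membrane, had 3046 ± 254. Spink3, the trypsin inhibitor that guards against premature activation, had 1607, 1032, 1189, 2003 and 1368 CPM. Its CV of 26.4% was the largest of any gene of the list over 10 CPM. Chaperones and translocation genes of the endoplasmic reticulum took 1.24% ± 0.0364, and all 27 reached 1 CPM in every mouse. Pdia2, the pancreatic protein disulfide isomerase, led them with 3900, 3819, 3991, 3905 and 3747 CPM, a CV of 2.40% that placed it among the 10 least variable genes over 100 CPM. P4hb, another disulfide isomerase, had 1555 ± 43.8 CPM and Hspa5, the chaperone BiP, 1380 ± 90.6. Gatm, the first enzyme of creatine synthesis, had 1148 ± 77.9 CPM, and Asns, the asparagine synthetase, had 431 ± 39.9.

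Transcription factors of acinar cells took a small share. The 10 factors listed took 0.141% ± 0.00887 of the counts, and 9 of them reached 1 CPM in every mouse. Per kb the order was led by Xbp1, the factor of the secretory stress response (299 ± 11.8), Rbpjl, the acinar subunit of the PTF1 complex (169 ± 13.8), and Bhlha15, known as Mist1 (34.7 ± 3.07), whose ranges did not overlap. Ptf1a, the pancreas-specific subunit of the same complex, had 32.5, 27.7, 28.9, 22.9 and 23.4 CPM and 18.0 ± 2.64 CPM per kb. Gata4 (20.5 ± 1.49 CPM per kb) lay next to it with an overlapping range. Nr5a2 stood at 9.11 ± 0.930 CPM, and Mnx1, a factor of the early pancreatic bud, was the member under 1 CPM, with 0.374 ± 0.177.

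Duct genes were present at moderate levels and took 0.208% ± 0.0122 of the counts. Of 20 listed genes, 17 reached 1 CPM in every mouse. Spp1, the secreted phosphoprotein osteopontin, led them with 736, 774, 696, 723 and 717 CPM. Keratins 18 and 8 had 295 ± 21.6 and 183 ± 13.2 CPM, and the mucin Muc1 had 189 ± 15.1. Aqp12, which is known as an aquaporin of acinar cells and is counted in this list and its share, had 241 ± 24.0 CPM. Cftr, the chloride channel of duct cells, was near the limit of detection with 1.46, 0.465, 0.576, 0.375 and 0.324 CPM. Car2, the carbonic anhydrase of ducts and of red blood cells, had the largest CV of the list among genes over 10 CPM, with 41.5, 40.5, 23.2, 49.3 and 8.49 CPM. Its lowest value was in WT 5 and its highest in WT 4, as for the erythroid gene Alas2.

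The islet hormones took 0.925% ± 0.0925 of the gene counts, and all 8 genes reached 1 CPM in every mouse. Ins2 (3105 ± 505 CPM per kb) and Gcg, which encodes glucagon (3023 ± 368), led them with overlapping ranges, and the ratio of Ins2 to Gcg per kb was 1.22, 0.905, 0.834, 1.07 and 1.13 in WT 1 to WT 5. This order depends on the length given to Ins2: with its longest transcript in place of all its exons, the ratio was between 1.19 and 1.74 and Ins2 was above Gcg in all 5 mice. The 2 insulin genes kept a steady proportion, with Ins2 above Ins1 by a factor of 3.02 ± 0.114 per kb of all exons, or 4.32 ± 0.163 by the longest transcript, although Ins1 itself had a CV of 19.4%. Iapp, the amyloid polypeptide that is released with insulin, had 613 ± 51.9 CPM per kb. Pyy (232 ± 53.0), Sst, which encodes somatostatin (132 ± 28.0), and Ppy, which encodes pancreatic polypeptide (90.04 ± 26.4), came next in that order, and the ranges of Sst and Ppy overlapped. Ghrl, which encodes ghrelin, was the lowest with 9.69 ± 1.99. Pyy, Ppy and Ghrl each had their highest value in WT 5, with 189, 66.4 and 12.6 CPM, while the highest value of Ins2 was in WT 4. The part that transcript length has in the spread of the insulin genes was not tested (deviations by length are given below).

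Islet transcription factors were low throughout. Together they took 0.00993% ± 0.000719 of the counts, and 14 of 18 reached 1 CPM in every mouse. Isl1, a factor of all endocrine cells, had 14.6, 14.2, 15.5, 14.7 and 14.6 CPM, and Pdx1, the factor of beta cells and pancreatic progenitors, had 11.0, 10.3, 8.30, 9.95 and 10.3. Mafa, the factor of mature beta cells, had 3.29 ± 0.806 CPM, or 1.20 ± 0.294 per kb. Neurog3, the factor that marks endocrine progenitors, had 0.510, 0.398, 0.305, 0.407 and 1.66 CPM. Among genes of hormone processing, all 17 reached 1 CPM in every mouse: Cpe and Chga had 379 ± 23.2 and 323 ± 27.4 CPM, and the prohormone convertases Pcsk2 and Pcsk1 had 17.0 ± 0.773 and 5.94 ± 0.385 CPM per kb. Glp1r, the receptor for the incretin GLP-1, had 6.06 ± 1.07 CPM.

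Genes of supporting tissue and blood cells were detected as well. The stroma and matrix list took 1.11% ± 0.114 of the counts, mostly on the collagens Col3a1 (4280 ± 419 CPM), Col1a1 (2047 ± 227) and Col1a2 (1131 ± 128), each of which was highest in WT 5. All 12 endothelial genes were detected in every mouse, among them Pecam1 with 67.0 ± 3.31 CPM and Plvap with 123 ± 8.94. All 9 macrophage genes were detected too, and C1qa, a complement component of tissue macrophages, had 91.0 ± 8.83 CPM. The mesothelial covering was represented by Msln (69.1 ± 4.67 CPM) and Upk3b (81.2 ± 5.65). Lymphocyte genes were scarce: Cd3e had 3.88 ± 0.637 CPM, Cd79a had 0.705 ± 0.274, and Cd8a had no count in any mouse.

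Markers of neighbouring organs were near 0 in all 5 libraries. The 8 listed genes of intestine and stomach took between 0.000563% and 0.000790% of the counts, with Gkn1, Gkn2 and Tff1 at 0 in every mouse and Vil1 as the only member over 1 CPM in every mouse (6.03 ± 0.844). The 4 genes of spleen and lymph node stroma took between 0.000142% and 0.000190%, with Ccl21a at 0. In the liver list, which took 0.0161% ± 0.00121, nearly all counts lay on Ttr (156 ± 17.1 CPM), a gene that alpha cells of the islet also express, and Alb, the defining liver gene, stood at 4.38 ± 1.12.

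**Figure D3:**
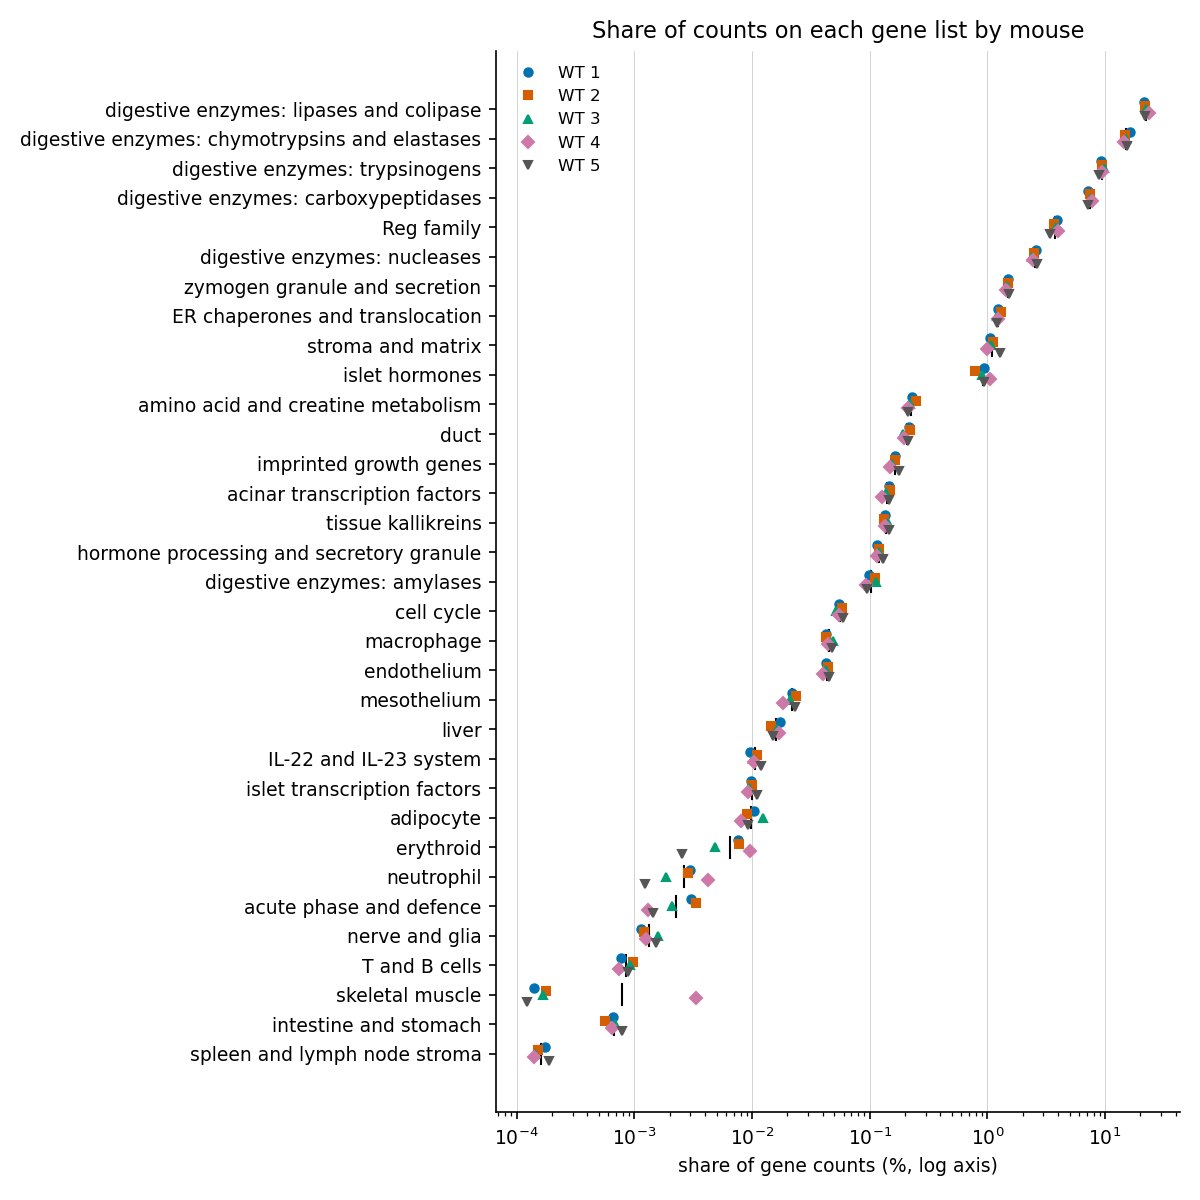
Share of gene counts (%, log axis) on each gene list, with 1 symbol per WT mouse and a vertical bar at the mean of the 5 mice. Lipases lead with 22.3%, most lists differ little between mice, and the erythroid, neutrophil, acute phase and skeletal muscle lists have CVs of 42.7%, 43.5%, 40.8% and 181%.

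Genes of cell division and growth were expressed throughout. All 15 listed genes of the cell cycle reached 1 CPM in every mouse, among them Mki67 (51.7 ± 4.93 CPM), Top2a (56.3 ± 5.65) and Ccnb2 (42.4 ± 3.60). Imprinted genes of fetal and neonatal growth took 0.163% ± 0.0113 of the counts, and 12 of 14 were detected in every mouse. Cdkn1c, an imprinted inhibitor of the cell cycle, led them per kb with 135 ± 14.2 CPM, followed by Mest (102 ± 5.20). Dlk1 (52.0 ± 4.83), Igf2, the fetal growth factor (44.6 ± 3.30), and Grb10 came next with ranges that overlapped between neighbours, and the long RNA H19 had 35.7 ± 1.72.

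The study concerns IL-22 and IL-23, so the baseline of that system was read as well. Both subunits of the IL-22 receptor were present: Il10rb, which several cytokine receptors share, had 36.3, 40.3, 37.5, 38.5 and 36.2 CPM, and Il22ra1, the subunit that confers the response to IL-22, had 6.40, 7.004, 5.62, 5.69 and 9.29. Stat3, the transcription factor downstream of the receptor, had 51.3 ± 4.97 CPM, and its feedback inhibitor Socs3 had 9.86 ± 1.22. The cytokine itself was not detectable at this depth: Il22 had 1 count in WT 1 and none in the other mice. Il23a and Il12b, which encode the 2 subunits of IL-23, had 0.173 ± 0.0987 and 0.0658 ± 0.0967 CPM. Il23r and Il22ra2 had no count.

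The 5 mice were close to each other. Among the 7201 genes with a mean of at least 10 CPM, the median coefficient of variation (CV) between mice was 8.85% (quartiles, 6.50% and 11.9%), against a median of 3.71% that counting error alone would give. The CV was under 10% for 60.5% of these genes, over 25% for 56 genes and over 50% for 11. The common biological CV estimated by edgeR was 13.3%. Across 14188 genes the correlation of log2 levels between any 2 mice was between 0.986 and 0.990, and 22 to 58 genes differed by more than 2-fold between 2 mice. These correlations are across genes, which are not independent replicates. Highly expressed genes were not free of spread: the 44 genes over 1000 CPM had median CVs of 6.20% (over 10000 CPM) and 8.14% (1000 to 10000 CPM), where counting alone would give 0.106% and 0.404%.

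**Figure D4:**
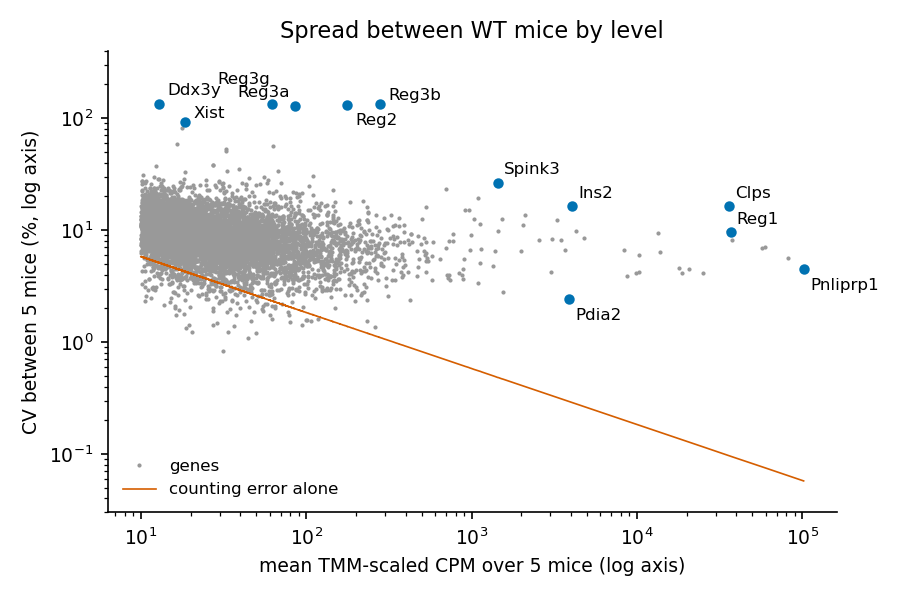
CV between the 5 WT mice (%, log axis) against the mean TMM-scaled CPM (log axis) for the 7201 genes with a mean of at least 10 CPM, with the CV expected from counting error alone as a line. Most genes lie near the median of 8.85%, and Reg2, Reg3a, Reg3b, Reg3g and Ddx3y lie above 100%.

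The 10 least variable genes over 100 CPM were Ctsd, Hpcal1, Hnrnpu, Sumo3, Irak1, Hadh, Tmed10, Cd81, Edem1 and Pdia2. Ctsd, the lysosomal protease cathepsin D, had 257, 264, 257, 264 and 258 CPM (CV, 1.35%). Hnrnpu, a nuclear RNA-binding protein, had 234, 235, 231, 236 and 227 CPM. All 10 had CVs of 2.40% or less, as the lower extreme of 583 genes. In Hpcal1, Sumo3 and Irak1 the CVs of 1.53%, 1.56% and 1.59% lay under those of counting error alone (1.77%, 1.82% and 1.69%). In the others the CV lay above it.

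Of the 7 measured Reg genes, 4 differed widely between mice. Reg3b, a secreted antibacterial lectin, had 671 and 705 CPM in WT 1 and WT 2, and 14.1, 4.69 and 4.57 CPM in WT 3 to WT 5. Reg2 had 428 and 439 CPM in the same 2 mice, and 7.72, 6.41 and 5.22 CPM in the other 3. Reg3a (207 and 208, against 6.44, 5.04 and 2.84 CPM) and Reg3g (138 and 164, against 3.96, 1.69 and 1.62 CPM) followed the same pattern. In each of the 4 genes WT 1 and WT 2 were high, and the gap between the lower of them and the next mouse was 55.4-fold for Reg2, 47.8-fold for Reg3b, 34.7-fold for Reg3g and 32.1-fold for Reg3a. The 2 other expressed members did not follow: Reg1 is given above, with WT 4 as its highest mouse, and Reg3d had 221, 231, 212, 207 and 170 CPM. Reg1 held 3.68% ± 0.235 of all counts, whereas Reg2, Reg3a, Reg3b and Reg3g together held 0.142% and 0.157% in WT 1 and WT 2 and between 0.00148% and 0.00318% in the other mice. All 6 transcripts can be told apart, since every 75-base window of their longest transcripts is unique to its gene.

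Few other genes were high in the same mice. Of 12817 genes with a mean of at least 1 CPM, 41 showed a gap of 3-fold or more that split the mice into a high and a low set, and in 5 of them the high set was WT 1 and WT 2: the 4 Reg genes and Fgl1, a secreted fibrinogen-like protein known as an acute phase protein of liver, with 14.1, 12.8, 0.745, 1.13 and 1.33 CPM. Lrg1, an acute phase glycoprotein, had 5.55 and 5.44 CPM in WT 1 and WT 2, and 1.86, 1.28 and 1.37 in the other mice, just under that gap. The acute phase and defence list held 0.00303%, 0.00335%, 0.00207%, 0.00131% and 0.00145% of the counts. WT 1 and WT 2 were its 2 highest mice. The list includes Fgl1, which was added after its values were seen, so this order is not separate from the pattern above. Without Fgl1, WT 3 would lie above WT 1. Of the other members of the list, Lcn2, which encodes lipocalin 2, had 3.67, 3.92, 1.86, 2.16 and 1.33 CPM. Pigr, the receptor that carries immunoglobulins across epithelia, had 0.987, 1.86, 0.102, 0.313 and 0.144 CPM. Both were highest in WT 1 and WT 2. Hp, which encodes haptoglobin, was highest in WT 3. The IL-22 receptor genes and Stat3 did not divide the mice in this way (values above).

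Sex-linked genes formed a further set. Xist, the RNA of the inactive X chromosome, had 24.9, 34.1, 0.508, 0 and 33.5 CPM, and the Y-linked gene Ddx3y had 0.578, 0.332, 28.9, 34.3 and 0 CPM. The Y-linked genes Eif2s3y, Kdm5d and Uty were high in the same mice as Ddx3y, WT 3 and WT 4. The libraries thus comprised 3 with the female and 2 with the male pattern, and the 2 mice with high Reg genes were both of the Xist-positive set, while the third Xist-positive mouse, WT 5, had low levels of these genes. A low level of the other sex's genes was present in WT 1, WT 2 and WT 3.

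Genes of blood, fat and muscle also showed such gaps. In 10 genes WT 5 was low against the other 4 mice, among them Slc4a1, the anion exchanger of red blood cells (20.7, 19.02, 11.7, 28.7 and 2.88 CPM), Hemgn (4.39, 3.32, 3.12, 5.41 and 0.288), the erythroid factor Gata1 and Mpo, the peroxidase of neutrophil precursors. Alas2, which starts heme synthesis in red cell precursors, had 45.5, 43.2, 31.3, 55.1 and 19.7 CPM. The globin genes Hba-a1, Hba-a2, Hbb-bs, Hbb-bt and Hbb-y are listed at 0 in every library although Alas2 was detected. Between 18.96% and 43.4% of the windows of the 4 adult globin genes are unique. Why these genes stand at 0 was not tested. In 6 genes WT 4 was low, among them the adipocyte genes Adipoq (5.14, 5.84, 8.47, 0.844 and 2.63 CPM) and Cidec (2.28, 2.19, 4.13, 0.313 and 1.22), and the lipogenic enzyme Scd1 had its lowest value in the same mouse (16.2, 15.9, 42.1, 5.60 and 8.39). Skeletal muscle genes were high in WT 4 alone: Acta1, the muscle actin, had 0.681, 1.43, 0.745, 25.8 and 0.576 CPM, and Myl1 had 0.442, 0.465, 0.305, 5.66 and 0.108. The part that carried-over neighbouring tissue has in these values was not tested.

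**Figure D5:**
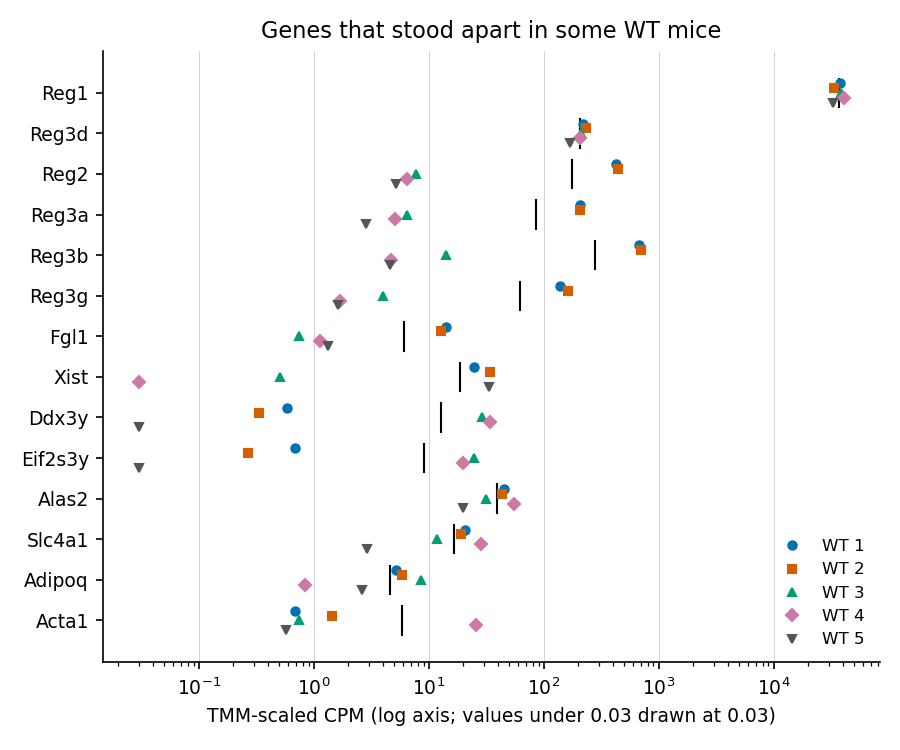
TMM-scaled CPM (log axis) of 14 genes in each WT mouse, with a vertical bar at the mean and values under 0.03 CPM drawn at 0.03. Reg1 and Reg3d are alike in all mice, Reg2, Reg3a, Reg3b, Reg3g and Fgl1 are high in WT 1 and WT 2, Xist and the Y-linked genes divide the mice differently, and Acta1 is high in WT 4.

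A last group of variable genes shared a short transcript. Rps29 and Rps21, which encode ribosomal proteins, had 84.4, 43.3, 46.1, 95.1 and 70.3 CPM and 44.5, 19.6, 24.5, 43.3 and 34.2 CPM, and Atp5k and Tmsb10 followed the same order of WT 1 and WT 4 above WT 2 and WT 3. Clps, with a transcript of 611 bases, and Spink3, of 729 bases, were likewise lowest in WT 2 and highest in WT 4. So were the insulin genes Ins2, of 918 bases, and Ins1, of 1062 bases. Across the 63 genes over 10 CPM whose longest transcript is at most 600 bases, the median log2 deviation from the mean of the 5 mice was 0.26 in WT 1, -0.31 in WT 2, -0.19 in WT 3, 0.21 in WT 4 and 0.04 in WT 5. Clps, Spink3 and Ins2 fall among the 349 genes of 600 to 1000 bases. There the median deviation was 0.14, -0.13, -0.02, 0.06 and -0.05 in WT 1 to WT 5. Ins1 falls among the 1502 genes of 1000 to 2000 bases, with 0.07, -0.01, 0.005, -0.008 and -0.05. WT 1 was the highest mouse in both classes, unlike in Clps, Spink3, Ins1 and Ins2. In the 2989 genes of 2000 to 4000 bases the median deviation stayed between -0.02 and 0.03. Transcript length moved with the deviations of the 5 mice in this way, and its part in the values of Clps, Spink3, Ins1 and Ins2 was not tested. Car3, Mt2, Chac1, Klf11 and Tmcc2 were also among the 20 largest CVs. Car3, the carbonic anhydrase of fat and muscle, had 68.9, 73.4, 113, 19.3 and 40.4 CPM, highest in WT 3 and lowest in WT 4 as for Scd1 and Adipoq. Chac1, a target of the ATF4 stress response, had 32.1, 37.6, 58.7, 21.5 and 13.5 CPM, also highest in WT 3.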

How the data were processed

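Whole pancreas RNA of 5 wild-type mice was measured by single-end RNA sequencing of oligo-dT primed, PCR-amplified cDNA made from very small RNA inputs. The authors aligned reads with TopHat2 2.1.0 to mm10 and deposited counts per gene symbol made with HTSeq 0.6.1p1 in its strict mode, as the submitters' processing notes and the study's methods give it. The annotation release and the use of strand are not given in the sources used here. Reads that aligned to several places were counted for no gene: 1.07 to 1.26 such alignments were tallied per gene count. Lines for reads in no gene (5.47% to 6.36% of unique alignments) or in several (1.16% to 1.27%) were left out of totals.

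The deposited counts were scaled by TMM (edgeR 4.0.16) over the 5 libraries alone, and biological CVs were estimated with an intercept-only design. The dispersion step was tested on simulated data. No 2 libraries agreed within sampling noise. Gene lengths came from GENCODE M21 basic, matched for 23666 of 24062 symbols. Named genes were the 30 highest by CPM, the 15 highest per kb, the 20 largest CVs over 10 CPM, the 10 smallest over 100 CPM, members of 34 lists, sex-linked genes and genes of the highest 1-Mb windows; Fgl1, Lrg1, Chac1 and other genes with gaps of 3-fold were added after their values were seen. The members and lists were chosen with earlier results of these data known. The values of some genes under this rule are not reported here. Of the symbols listed, 5 were not found and 4 stood under older symbols. A gene not found may be present under a name that was not matched. Alternatives covered scaling, filters, gene length, denominators and each mouse left out.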

Additional observations from a re-analysis of the deposited data

Results flagged for a closer look

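A mouse stood apart from the other 4 by Dixon's criterion, a gap to the nearest mouse of more than 0.71 of the whole range, in 16 of 203 values examined. Chance sets about 1 in 20 groups apart by this criterion, but the count is not read against that rate, because the values include genes chosen for their spread and genes with a few counts in all. Among the shares of gene lists, skeletal muscle held 0.00336% of the counts in WT 4 and 0.000123% to 0.000179% in the other mice. WT 4 was also high for the muscle genes Acta1 (25.8 against 0.576 to 1.43 CPM), Myl1 (5.66 against 0.108 to 0.465), Myh8 (3.53 against 0.133 to 0.576) and Mylpf (6.22 against 1.16 to 1.59). In the other 4 mice these muscle genes lay at 1.59 CPM or less.

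WT 3 was low for Sox9, the duct factor, with 47.7 against 63.1 to 66.1 CPM, and for the trypsinogen gene Gm10334, with 1206 against 1491 to 1574 CPM, and high for Hp, which encodes haptoglobin, with 5.86 against 1.15 to 2.48 CPM. WT 1 was high for Cftr (1.46 against 0.324 to 0.576 CPM) and Plvap (139 against 117 to 122) and low for Pcsk1 (26.6 against 30.3 to 31.7). WT 5 was high for Neurog3 (1.66 against 0.305 to 0.510 CPM) and for Col1a2 (1355 against 1033 to 1115). The remaining values rest on few counts: Pax4 had 0.0720 CPM in WT 5 and no count elsewhere, Il22 had 0.0340 CPM, from 1 count, in WT 1 and no count elsewhere, and Il12b had 0.232 CPM in WT 2 against 0 to 0.0626.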

How the results depend on the processing

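Counts per gene length raised the share of digestive enzyme genes from 57.0% to 68.7% (68.0% by the longest transcript), of islet hormones from 0.925% to 1.14% (1.30%) and of the Reg family from 3.76% to 5.78% (5.67%), and lowered the number of genes holding 50% from 11 to 7. The enzyme share was 59.2% of a total without the Reg family, and 52.8% with reads in no gene or in several added. It was 58.1% with the trypsin genes 2210010C04Rik and Gm10334, an alternative chosen after seeing the data, as was the longest transcript. Reads that aligned to several places entered none of these totals, so 52.8% is not a lower limit. At least 1 count in any mouse detected 18517 genes against 12188. The median CV was 9.45% by total counts alone, 11.4% from 1 CPM and 6.69% from 100 CPM, against 8.85%; 91 genes from 1 CPM exceeded a CV of 50%, against 11 from 10 CPM. The common biological CV was 14.3% without the count filter and 13.8% by total counts alone, against 13.3%.

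Leaving out each mouse in turn gave a median CV of 8.32% to 8.90%, a common biological CV of 13.2% to 13.7%, 8 to 12 genes over a CV of 50%, an enzyme share of 56.8% to 57.2%, an islet hormone share of 0.894% to 0.958% and a Reg share of 3.71% to 3.85%. None of the 336 levels of 168 named genes recomputed under another scaling moved by 1 SD or more. That outcome was close to given and says little about the levels. The TMM factors lay between 0.963 and 1.036, so a mean over the same 5 mice could hardly move by the SD between them. Of the 159 named genes with a mean of at least 1 CPM, 14 had a mean that changed by over 1.5 times when 1 mouse was left out, an alternative reading chosen after seeing the data: Reg2, Reg3a and Reg3b without WT 1 or WT 2 and Reg3g without WT 2; Eif2s3y, Kdm5d and Scd1 without WT 3; and Ddx3y, Kdm5d, Uty, Acta1 (5.84 to 0.865 CPM), Myl1, Myh8, Mylpf and Mpo without WT 4. No paired analysis was possible because the values come from 1 group and no test between groups. Depth limits statements on genes under about 0.1 CPM.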
